A study of Mus musculus with 15 samples.

Results

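The manchette is a transient skirt of microtubules that hangs from a ring around the nucleus of the elongating spermatid. It moves down the nucleus while the head narrows, and it carries vesicles and protein complexes toward the neck and the growing tail. Spermatids that build or clear it badly form sperm with bent, club-shaped or detached heads and short tails. 7 genes known for this structure or for the shape of the sperm head, Hook1, Meig1, Iqcg, Lrguk, Rimbp3, Spem1 and Clip1, were followed here. They were found by Entrez Gene ID in a table of 23510 genes, all 7 had a row, and all 7 were among the 14514 genes tested. Their levels are given as FPKM, fragments mapped to a gene scaled by its length and by the library total, so levels can be compared between genes.

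RNA from testes of ICR mice, an outbred stock, was sequenced in 15 libraries, 3 in each of 5 groups. The labels call the first group Con and its genotype control, and they give no treatment or age for it. Between MNC and Con, injection, virus and any difference in age or tissue taken therefore cannot be told apart. MNC is the vector control, and in the study's methods it is a lentivirus with a control short hairpin RNA. M1, M3 and M5 received mixtures of lentiviruses against the muscarinic acetylcholine receptors of those names, encoded by Chrm1, Chrm3 and Chrm5. Per the methods, the virus was injected into the testes at 5 weeks of age and the testes were taken 10 days later, and the groups MNC, M1, M3 and M5 all share the injection. A whole testis was sequenced, so the values mix all of its cell types, and the cells reached by the virus are not stated. The labels do not say that the libraries of a group came from separate animals, so p-values measure the spread between these libraries, which may be technical.

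The FPKM of a library added up to between 470243 and 513817, and its absolute depth is unknown. The label text speaks of sperm where the titles say testis. All 9 Sertoli cell and all 6 Leydig cell markers were above 0 in all 15 libraries, as were all 9 elongating spermatid, 9 round spermatid and 10 spermatocyte markers. Epididymal markers summed to 14.7 to 33.9 FPKM in Con and to at most 0.610 in MNC, M1 and M5, while M3 had 1.20 to 21.4. M3 replicate 3 stood with the M5 libraries for part of the genes, and values without it are given beside the M3 comparisons of the members and of the named related genes. M5 replicate 3 stood apart from the other M5 libraries in markers of other cells. Its Sertoli cell markers summed to 860 FPKM, against 466 and 528 in the other M5 libraries and 577 to 664 in MNC, its Leydig cell markers to 3180, against 1778 and 1527 in M5 and at most 2007 in MNC, and its macrophage markers to 127, against 55.9 and 66.5 in M5. It was the lowest M5 library in every member but Clip1, in Rimbp3 by a small margin. Values without it are given with the M5 results of Meig1, Hook1, Iqcg, Spem1 and Lrguk. Chrm5 had a mean of 0.320 FPKM in M5 and 0.363 in MNC (two-sided exact permutation test, p = 0.5, where 0.1 is the smallest p possible). Chrm1 (0.113 FPKM in M1, 0.107 in MNC) and Chrm3 (0.0767 in M3, 0.0367 in MNC) did not separate from MNC either (exact permutation p = 0.9 and 0.3). All 3 levels are low, so the targeted transcripts do not check the labels. The study reports less M5 protein in testes given the virus against M5, by immunofluorescence and Western blot.

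HOOK1 is a coiled-coil linker between microtubules and cargo, and its loss in the azh mouse gives abnormal sperm heads. RIMBP3 binds HOOK1 at the manchette. MEIG1 is a small protein that is needed for the manchette to work. LRGUK joins leucine-rich repeats to a guanylate kinase domain and is needed for head shape and tail growth. IQCG is a calmodulin-binding protein of the axoneme and manchette. CLIP1, also called CLIP-170, rides on growing microtubule ends and is found at the manchette. SPEM1 is a late spermatid protein, without which the residual cytoplasm is not shed and the head stays bent.

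Promoter sequence from RefSeq was at hand for 6 of the 7 genes, as windows from 250 bases before to 50 bases after a start site on GRCm38.p6, the build also called mm10. The 8 windows were searched on both strands for motifs of factors known in spermatids. The cAMP response element TGACGTCA, the site of CREM, was in 1.79% of all 32851 promoters of this length. Its short form TGACG, which also lies inside the palindrome, was in 20.8%, and GTTGCC, a part of the X-box bound by RFX factors, in 12.5%. Meig1 has 3 annotated start sites, of which the second is shown because it holds a motif close to the start. The 4 windows below are given because the results turn on Meig1, Spem1 and Iqcg, and because Lrguk alone of the 6 genes held the palindrome. Capitals mark the motif letters, read 5′ to 3′ on the strand of the gene, so that CGTCA is TGACG and GGCAAC is GTTGCC on the other strand.
Meig1, chr2:3419080-3419379, minus strand: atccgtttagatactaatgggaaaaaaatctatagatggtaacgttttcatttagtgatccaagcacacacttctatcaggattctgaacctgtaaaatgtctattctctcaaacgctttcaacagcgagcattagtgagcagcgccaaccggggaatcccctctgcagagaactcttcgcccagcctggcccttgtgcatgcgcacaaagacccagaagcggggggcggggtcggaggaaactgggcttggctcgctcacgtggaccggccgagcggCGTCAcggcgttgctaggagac
Spem1, chr11:69822116-69822415, minus strand: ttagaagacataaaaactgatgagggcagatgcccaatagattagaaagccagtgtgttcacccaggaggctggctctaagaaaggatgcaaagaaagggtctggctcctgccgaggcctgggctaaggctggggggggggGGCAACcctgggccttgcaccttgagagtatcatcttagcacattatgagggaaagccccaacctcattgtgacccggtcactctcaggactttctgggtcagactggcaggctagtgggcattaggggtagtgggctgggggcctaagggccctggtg
Iqcg, chr16:33056137-33056436, minus strand: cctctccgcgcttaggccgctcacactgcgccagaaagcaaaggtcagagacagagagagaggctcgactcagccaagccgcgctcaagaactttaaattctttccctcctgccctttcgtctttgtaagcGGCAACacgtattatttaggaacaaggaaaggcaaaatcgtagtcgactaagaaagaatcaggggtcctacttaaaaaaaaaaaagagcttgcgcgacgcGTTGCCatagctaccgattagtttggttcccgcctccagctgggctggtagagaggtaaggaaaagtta
Lrguk, chr6:34029198-34029497, plus strand: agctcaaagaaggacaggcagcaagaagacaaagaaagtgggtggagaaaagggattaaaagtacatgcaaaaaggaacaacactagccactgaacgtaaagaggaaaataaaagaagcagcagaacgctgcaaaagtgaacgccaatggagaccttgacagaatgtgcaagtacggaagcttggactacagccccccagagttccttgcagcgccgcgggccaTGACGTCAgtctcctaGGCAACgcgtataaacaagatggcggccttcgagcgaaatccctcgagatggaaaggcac
The Meig1 motif shown began 29 bases after the second start site, the short form was also at position -134 of the third, and the window of the first held none of the 3 motifs. The Lrguk palindrome began at position -26 and its X-box letters at position -10. Iqcg held the X-box letters at positions -119 and -19, and Spem1 at position -109. The window of Hook1 held none of the 3 motifs, and that of Clip1 held the short form at position -9. A match describes letters in a window and is no evidence of binding.

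Averaged over the 15 libraries, Meig1 had the highest level of the 7 genes, 1669 FPKM, followed by Spem1 at 439, Hook1 at 203 and Rimbp3 at 121. Clip1 averaged 41.6 FPKM, Iqcg 26.3 and Lrguk 16.9. Spem1 also varied most, with a highest library 2.93 times its lowest. Meig1 spanned 1.82-fold, Hook1 1.71-fold and Iqcg 1.47-fold, while Clip1, Lrguk and Rimbp3 stayed within 1.31-fold. The SD of log2(FPKM + 1) over the 15 libraries was 0.42 for Spem1, 0.30 for Meig1 and 0.21 for Hook1, against a median of 0.18 for all genes tested. It was 0.17 for Iqcg, 0.11 for Clip1, 0.09 for Lrguk and 0.08 for Rimbp3.

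**Figure D1:**
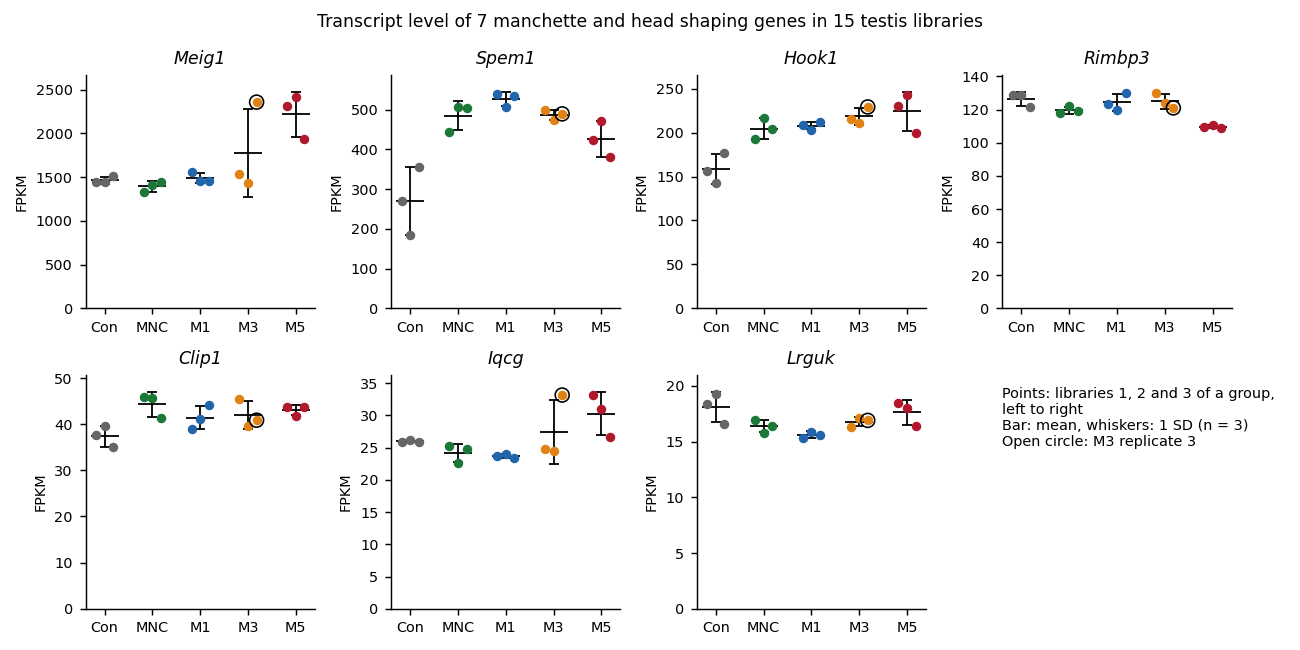
FPKM of the 7 genes (vertical axes, from 0) in the 15 libraries by group (horizontal axes). Points are libraries 1 to 3 of a group from left to right, bars are means with 1 SD (n = 3), and the open circle is M3 replicate 3. Meig1 was at 1931 FPKM or more in the M5 libraries and M3 replicate 3 and at 1562 or less in the other 11, and the 3 Con libraries held the lowest 3 values of Spem1 and of Hook1.

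Meig1 rose in M5. Meig1 lies on the minus strand at chr2:3409043-3422648, has 3 or 4 exons by transcript, and its longest transcript has 706 bases. It was at 1439, 1447 and 1513 FPKM in Con replicates 1 to 3 and at 1328, 1414 and 1442 in MNC. In M1 it was at 1562, 1453 and 1456, and in M3 at 1536, 1434 and 2357. In M5 it was at 2309.8, 2416 and 1931. All 3 M5 libraries thus lay above every Con, MNC and M1 library, and M3 replicate 3 lay inside the M5 range while the other M3 libraries did not. M5 averaged 2219 ± 255 FPKM (SD, n = 3) and MNC 1395 ± 59.4 (SD, n = 3), a log2 difference of 0.66 or 1.58-fold (SE 0.10, limma adjusted p = 0.025). It was the 1 member of 7 called between M5 and MNC, where 5.65% of all genes tested were called, 2.76% higher and 2.89% lower. Against M1, which averaged 1490 ± 61.9 FPKM, the difference was 0.57 (SE 0.10, limma adjusted p = 0.0295), again the 1 member of 7 called, beside 6.75% of all genes, 3.23% higher and 3.52% lower.

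The M5 difference of Meig1 lay between 0.54 and 0.76 in all 17 alternative fits, but it stayed called in 8 of them. Its limma adjusted p was 0.0618, 0.0859 and 0.102 without MNC replicate 1, 2 or 3, 0.0915 without M5 replicate 1 and 0.101 without M5 replicate 2, and 0.0103 without M5 replicate 3. Against M1 the call was lost without any M1 library (adjusted p 0.0981 to 0.137), without M5 replicate 1 (0.0873) and without M5 replicate 2 (0.0907). Between M3 and MNC the difference was 0.31 (SE 0.18, limma adjusted p = 0.567), and without M3 replicate 3 it was 0.09 (adjusted p = 0.764). M5 exceeded M3 by 0.35 (limma adjusted p = 0.428), or by 0.57 without that library (adjusted p = 0.105). M1 differed from MNC by 0.10 (adjusted p = 0.819), with ranges that did not overlap. MNC differed from Con by -0.07 (limma adjusted p = 0.335), but by -0.48 with quantile normalization (adjusted p = 0.0258) and -0.20 with the length trend removed (adjusted p = 0.0316).

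Genes low in GC that were called were nearly all called higher in M5, as Meig1 was. Of 2699 genes at 45% GC or lower, 179 were called higher and 2 lower in M5 than in MNC, and of 6978 genes over 50% GC, 57 were called higher and 344 lower. Of 874 genes with a longest transcript of 1000 bases or less, 8.47% were called higher. Meig1 has 43.9% GC. With the GC trend removed its difference was 0.54 (limma adjusted p = 0.0494) against MNC and 0.47 (adjusted p = 0.052) against M1, and with the length trend removed it was 0.58 (adjusted p = 0.0189) against MNC and 0.51 (adjusted p = 0.0196) against M1.

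In bulk tissue, fewer cells of a type and less RNA per cell cannot be told apart. The 9 elongating spermatid markers summed to 24085 to 30431 FPKM in MNC and 24213 to 33619 in M5, which overlap. Single markers of this list separated in both directions. Tnp2 was at 4256 to 6078 FPKM in MNC and 2798 to 3661 in M5, and Prm3 at 260 to 338 in MNC and 362 to 495 in M5. The 9 round spermatid markers summed to 2180 to 2280 in MNC and 1914 to 1993 in M5. For the 10 spermatocyte markers the sums were 654 to 680 in MNC and 736 to 800 in M5. Members of both lists went both ways. Dkkl1, the round marker with the highest level, averaged 926 FPKM in MNC and 728 in M5. Spaca7 rose from 107 to 132 and Catsper3 from 49.7 to 56.7. Of the spermatocyte markers, Hormad1 rose from 59.0 to 96.2 and Sycp1 from 46.4 to 80.4, while Piwil1 fell from 111 to 91.2. Red blood cell markers summed to 21.8 to 35.3 FPKM in MNC, 148 to 491 in M5 and 98.9 in M3 replicate 3. They reached 69.8 in Con, 79.3 in M1 and 68.2 in M3 replicate 2. In M3 replicate 3, Hba-a1 made up 84.3 FPKM of the sum. Hbb-bs was at 1.54 there, against 35.7 to 106 in M5, and Hbb-bt at 0, against 6.22 to 18.4 in M5. Of the 5 blood markers, the globin genes Hba-a2 and Hbb-bt were at 0 in at least 1 MNC library. M5 replicate 3 had the highest blood sum, the lowest round and elongating spermatid sums of the M5 libraries and the lowest M5 level of Meig1, and without it the Meig1 difference from MNC was 0.76, as given above, and that from M1 was 0.67 (limma adjusted p = 0.00935). The part of the spermatocyte, round spermatid, somatic and blood markers in the Meig1 result was not tested.

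Iqcg, on the minus strand at chr16:33014270-33057145 with 11 exons, also had its highest values in M5 and M3 replicate 3. It was at 25.9, 26.1 and 25.9 FPKM in Con and at 25.3, 22.6 and 24.7 in MNC. In M1 it was at 23.7, 24.0 and 23.4, in M3 at 24.8, 24.4 and 33.2, and in M5 at 33.2, 31.0 and 26.6. The M5 libraries and M3 replicate 3 were above all the other 11, which reached 26.1. The M5 difference was 0.31 from MNC (95% interval 0.08 to 0.54, limma adjusted p = 0.112) and 0.34 from M1 (0.13 to 0.54, adjusted p = 0.0682), and neither passed the test. Without M5 replicate 3, the lowest of the group, they were 0.39 (adjusted p = 0.0464) and 0.42 (adjusted p = 0.0162). Of 17 alternative fits, Iqcg was called in 1 against MNC (limma adjusted p up to 0.307) and in 2 against M1 (up to 0.285). M3 differed from MNC by 0.16 (adjusted p = 0.624), or by 0.02 without M3 replicate 3.

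Reads of Iqcg are uncertain where its span overlaps other genes, by 1760 bases with Lrch3 and 693 with Rpl35a, since strand is not stated to have been used. Rpl35a, a ribosomal protein gene, was at 105, 113 and 106 FPKM in M5 and 109 in M3 replicate 3, and at 129, 48.6 and 39.5 in MNC. Lrch3 had 6.45, 6.32 and 6.80 FPKM in MNC and 5.30, 5.17 and 5.99 in M5. Rpl35a was thus also high in the 4 libraries where Iqcg was, although it was highest in MNC replicate 1, and its part in the Iqcg values was not tested.

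Spem1 was higher in MNC than in Con. It lies on the minus strand at chr11:69820871-69822165 with 3 exons and a transcript of 1041 bases. It was at 270.4, 184 and 355 FPKM in Con and at 444, 507 and 504 in MNC. In M1 it was at 540.1, 507 and 534, in M3 at 498, 474 and 489, and in M5 at 424, 471 and 380.4. Every Con library lay below every library of the 4 injected groups. Con averaged 270 ± 85.4 FPKM (SD, n = 3) and MNC 485 ± 35.6, a log2 difference of 0.89 or 1.85-fold (SE 0.23, limma adjusted p = 0.0415). Spem1 and Hook1 were the 2 members of 7 called between MNC and Con, where 20.4% of all genes were called, 8.03% higher and 12.4% lower. Of those calls 39.3% were higher, and 77.5% with each library centred on its median. The Spem1 call was kept in 7 of 17 alternative fits, and without Con replicate 2, the lowest library, the difference was 0.64 (adjusted p = 0.0655). It was also lost without Con replicate 1 (0.119) and without MNC replicate 1, 2 or 3 (0.059, 0.103 and 0.0947).

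Among the injected groups, Spem1 was lowest in M5. Its difference from M1 was -0.31 (95% interval -0.52 to -0.11, limma adjusted p = 0.0765) and from M3 -0.20 (-0.42 to 0.02, adjusted p = 0.361, or -0.20 and 0.354 without M3 replicate 3), and in both the ranges did not overlap. From MNC it was -0.19 (-0.42 to 0.04, adjusted p = 0.276), with overlap. Without M5 replicate 3, the lowest of the group, the difference was -0.24 from M1 (adjusted p = 0.0596) and -0.12 from MNC (adjusted p = 0.408). With the GC trend removed, the MNC difference was -0.10, and Spem1 has 54.9% GC. None of these passed the test.

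Hook1, on the plus strand at chr4:95967181-96025412 with up to 22 exons, was also higher in MNC than in Con. It was at 157, 142 and 176 FPKM in Con and at 193, 217 and 204 in MNC. In M1 it was at 209, 203 and 212, in M3 at 215, 211 and 229, and in M5 at 229.8, 243 and 199.5. The Con libraries were below all of the others, and the 4 injected groups overlapped. The MNC difference from Con was 0.37 (SE 0.09, limma adjusted p = 0.0363), and it was kept in 10 of 17 alternative fits. It was lost without Con replicate 1 (0.119), Con replicate 2 (0.0925), MNC replicate 2 (0.095) or MNC replicate 3 (0.0794). M5 differed from MNC by 0.13 (95% interval -0.08 to 0.34, adjusted p = 0.416), and by 0.21 without M5 replicate 3 (adjusted p = 0.111). Hook1 has 40.7% GC, and that difference was -0.044 with the GC trend removed. The span of Hook1 overlaps that of the non-coding gene 9530080O11Rik by 475 bases, where reads of the genes cannot be told apart.

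**Figure D2:**
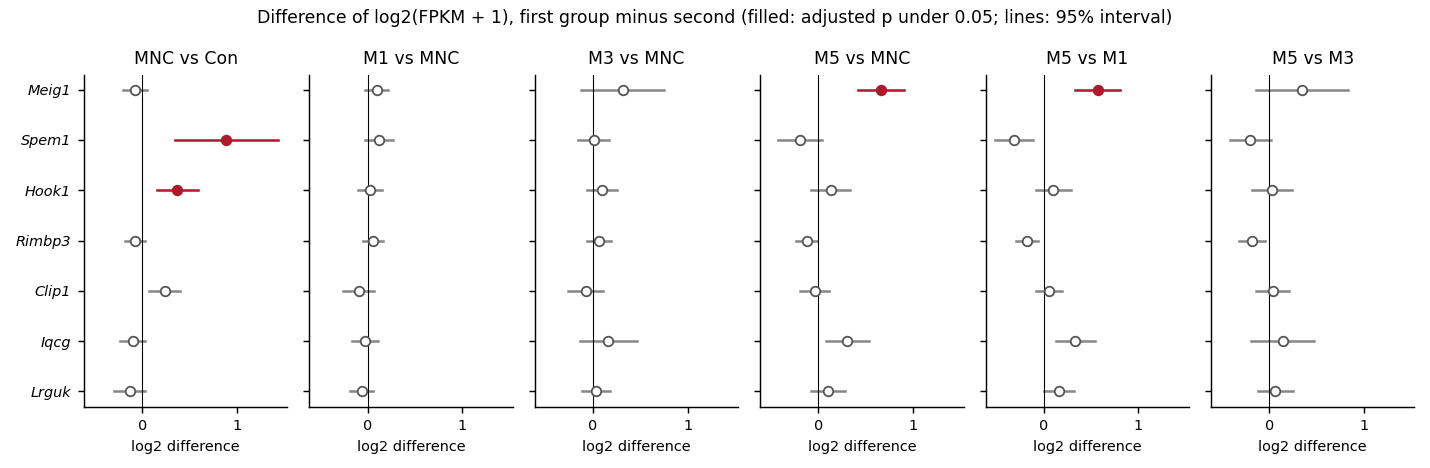
Difference of log2(FPKM + 1), first group minus second (horizontal axes), for the 7 genes (rows) in 6 comparisons (panels) with 95% intervals from limma. Filled points were called at an adjusted p under 0.05: Spem1 and Hook1 between MNC and Con, and Meig1 between M5 and MNC and between M5 and M1.

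Clip1, at chr5:123577794-123684606 on the minus strand with up to 26 exons, was at 37.6, 39.5 and 35.0 FPKM in Con. In MNC it was at 46.0, 45.7 and 41.3 FPKM. These ranges did not overlap, and the difference of 0.24 (95% interval 0.08 to 0.40) had a limma adjusted p of 0.0528, which ranged from 0.0219 to 0.144 over the alternative fits and passed in 6 of 17. The injected groups overlapped, from 39.0 to 44.1 FPKM in M1, 39.7 to 45.5 in M3 and 41.8 to 43.7 in M5. The M5 difference from MNC was -0.04 (-0.19 to 0.11, adjusted p = 0.754).

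Rimbp3 lies on the plus strand at chr16:17208135-17213982, in a single exon. It was at 129, 129 and 121 FPKM in Con, at 118, 122 and 119 in MNC, and at 124, 119.7 and 129.8 in M1. In M3 it was at 129.9, 124 and 121, and in M5 at 109.7, 111 and 109. The 3 M5 libraries were the lowest 3 of the 15 and lay within 2 FPKM of each other, while M3 replicate 3 stayed with the rest. The differences were small and none passed the test: -0.12 from MNC (95% interval -0.23 to -0.012, limma adjusted p = 0.163), -0.18 from M1 (-0.29 to -0.06, adjusted p = 0.0754) and -0.18 from M3 (-0.32 to -0.05, adjusted p = 0.338). Without M3 replicate 3 the last was -0.21 (limma adjusted p = 0.137). The M1 difference was called in 1 of 17 alternative fits, that of all 5 groups in 1 fit (limma adjusted p = 0.0333). Rimbp3 has 55.8% GC, and with the GC trend removed its differences were -0.0088 from MNC and -0.09 from M1.

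Lrguk, at chr6:34029245-34134034 on the plus strand with up to 20 exons, had the lowest mean level of the 7 genes. Its span overlaps the predicted gene Gm38786 by 480 bases. It was at 18.4, 19.3 and 16.6 FPKM in Con, 16.9, 15.8 and 16.4 in MNC, and 15.3, 15.9 and 15.6 in M1. In M3 it was at 16.3, 17.1 and 16.9, and in M5 at 18.5, 18.1 and 16.4. M5 lay above M1 in every library, by 0.16 on the log2 scale (95% interval 0.004 to 0.32, limma adjusted p = 0.188). The M5 difference from MNC was 0.10 (-0.08 to 0.28, adjusted p = 0.453), and 0.019 with the GC trend removed. Without M5 replicate 3, the lowest of the group, Lrguk in M5 differed by 0.15 from MNC and by 0.21 from M1, and neither was called.

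Seen by comparison, 3 of the 7 genes did not overlap between M5 and MNC, where 32.1% of all genes did not, and 5 of 7 between M5 and M1, beside 33.7%. Between MNC and Con it was 4 of 7, beside 46.5%, between M5 and M3 it was 2 of 7, beside 22.9%, between M3 and MNC it was 0 of 7, beside 17.1%, and between M1 and MNC the 2 genes Meig1 and Spem1, beside 12.0%. No member was called in M1 against MNC, where limma called no gene (0.0%, with 862 genes at an unadjusted p under 0.05), nor in M3 against MNC (0.00689%) or M5 against M3 (0.0138%). The median log2 difference of the 7 genes was 0.10 in M5 against MNC and -0.07 in MNC against Con, where all genes had medians of 0.03 and -0.10. The comparisons share MNC or M5 libraries, so their values are not independent of each other.

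Since the manchette belongs to spermatids, each gene was also read beside the mean log2(FPKM + 1) of the 18 round and elongating spermatid markers. That mean was 8.77 ± 0.17 (SD, n = 3) in Con, 9.22 ± 0.07 in MNC, 9.25 ± 0.05 in M1, 9.23 ± 0.07 in M3 and 9.20 ± 0.12 in M5. Con was thus low in this mean as well, though not in every marker. The elongating markers summed to 12132 to 22785 FPKM in Con and 24085 to 30431 in MNC. The round markers summed to 2016 to 2054 in Con and 2180 to 2280 in MNC. Among them Dkkl1 averaged 931 in Con and 926 in MNC, and Zpbp 74.4 and 69.3. The spermatocyte markers were higher in Con, with sums of 814 to 869 against 654 to 680 in MNC. Meig1 stood above the marker mean by 1.23 ± 0.03 in MNC and 1.29 ± 0.04 in M1 on the log2 scale, and by 1.91 ± 0.06 in M5 and 1.75 ± 0.14 in Con. The M5 and MNC values did not overlap, and the M5 values overlapped those of Con. Iqcg stood below the marker mean in every group, with -4.56 ± 0.14 in MNC, -4.24 ± 0.09 in M5 and -4.02 ± 0.18 in Con.

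Hook1, which was lower in Con than in MNC as FPKM, was not lower beside the markers, at -1.46 ± 0.03 in Con and -1.54 ± 0.03 in MNC, which did not overlap. It was at -1.39 ± 0.03 in M5, and the 3 M5 libraries were the highest of the 15. Spem1 stayed lower in Con, at -0.74 ± 0.30 against -0.29 ± 0.04 in MNC, and was at -0.47 ± 0.05 in M5. Rimbp3 was at -1.78 ± 0.21 in Con, -2.30 ± 0.05 in MNC and -2.41 ± 0.10 in M5. These values are descriptions without a test, and the part of spermatid number in the Con levels was not tested.

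**Figure D3:**
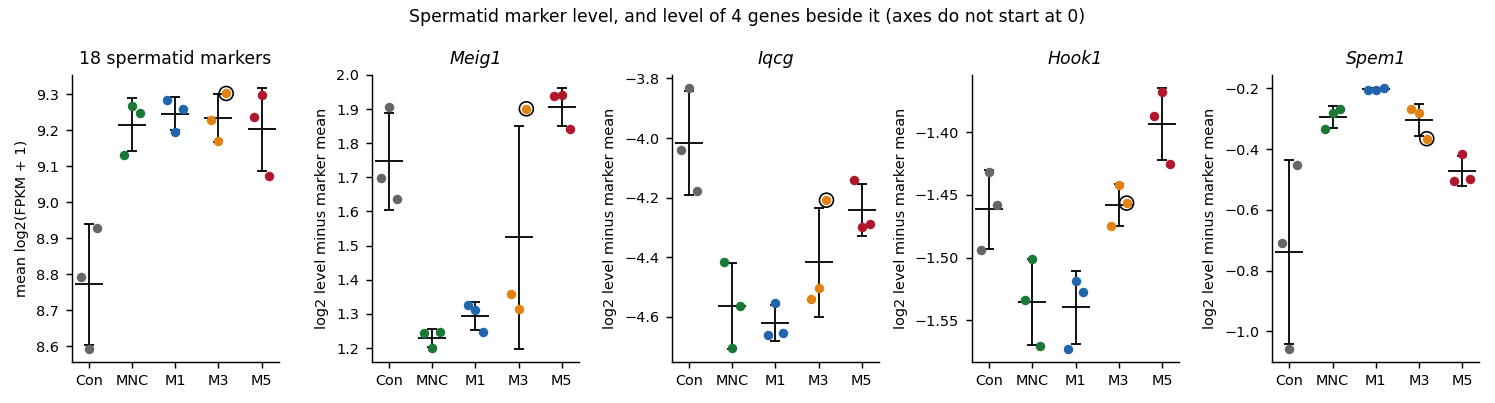
Left panel: mean log2(FPKM + 1) of 18 spermatid markers by group. Other panels: log2 level of Meig1, Iqcg, Hook1 and Spem1 minus that mean, by library, with means and 1 SD (n = 3). M3 replicate 3 is circled, and the axes do not start at 0. The Con libraries are lowest in the marker mean, and Meig1 in M5 (1.84 to 1.94) is above MNC (1.20 to 1.25).

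The genes most like each member over the 15 libraries were found by the root mean square difference of centred log2 values. For Meig1 they were Tomm7 and Pet100 (0.09 for both), 2 genes of mitochondrial import and assembly. For Hook1 they were Fxr1, an RNA-binding protein, and the outer dense fibre gene Odf2 (0.04 and 0.05), the latter also on the spermatid marker list. For Iqcg they were Spink2 and Tctex1d2 (0.05 for both), and for Spem1 4933411K16Rik and Fam71f2 (0.04 and 0.06). Rimbp3 was most like Isca2 and Dnal4 (0.03 and 0.04), Lrguk was most like Naa25 and Cct3 (0.05 for both), and Clip1 was most like Muc16 and Acbd3 (0.05 for both). The SD of Rimbp3, Lrguk and Clip1 was at percentile 4.4, 6.3 and 12.5 of all genes tested. Genes that vary little lie near them by this measure, and Muc16 averaged only 1.34 FPKM.

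A further 57 genes of the same structures were listed in 6 groups, and all 57 were tested. Between M5 and MNC 4 of them (7.02%) were called, 2 higher and 2 lower, beside 5.65% of all genes. With a filter of 5 FPKM, which most of the 57 pass, 1110 of 9340 genes were called, a share above both of these. The count of the list rose with that filter too, as given below. Ift20, a subunit of intraflagellar transport that also travels along the manchette, had 39.3, 34.8 and 41.7 FPKM in MNC and 56.96, 56.8 and 58.7 in M5, a rise of 0.57 (SE 0.08, limma adjusted p = 0.0184). Cep112, a centrosomal gene of the head to tail coupling list, rose by 0.67 (adjusted p = 0.048), from 75.4, 99.4 and 71.1 FPKM to 138, 137 and 115. Without M5 replicate 3 this difference was 0.75 and not called (limma adjusted p = 0.0507). Cep112 averaged 109 FPKM in M1 and 113 in M3, and M5 differed from M1 by 0.25 (limma adjusted p = 0.119). Odf1, an outer dense fibre protein of the tail and coupling apparatus, fell by 0.51 (limma adjusted p = 0.0337), from 1265, 1392 and 1330.1 FPKM to 939, 1029 and 847. M3 replicate 3 had 134 FPKM of Cep112, 50.7 of Ift20 and 1077 of Odf1, which is nearer to the M5 mean than to the other M3 libraries for each of these genes. The count of 4 was 2, 1 and 0 without MNC replicate 1, 2 or 3, was 0 without M5 replicate 1 or 2, and was 7 without M5 replicate 3. Over all 14514 genes, the 820 calls became 362, 92 and 60 without MNC replicate 1, 2 or 3. They became 85 and 35 without M5 replicate 1 or 2, and 946 without M5 replicate 3. With the GC trend removed 1 gene was called.

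None of the 18 partners and close relatives of the members was called between M5 and MNC. Among them are the Hook1 relatives Hook2 and Hook3, which were picked out for their role after their values were seen. Hook2 differed by -0.31 (95% interval -0.69 to 0.07, limma adjusted p = 0.286) and Hook3, at 2.55 FPKM in M5, by 0.18 (-0.13 to 0.49, adjusted p = 0.433). The 11 nuclear envelope genes and the 4 ubiquitin and Ran genes had no call either.

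Between MNC and Con 23 of the 57 genes (40.4%) were called, 14 higher and 9 lower in MNC, beside 20.4% of all genes. Most of the 57 averaged above 5 FPKM, and with that filter 3050 of 9340 genes were called. That share is above the 20.4% of all genes and below the 40.4% of the list, which was taken without that filter. The head to tail coupling list had 4 of 7 higher and none lower, with a median of 0.33 where all genes had -0.10. Odf1, at 679.95, 545 and 861 FPKM in Con, was higher in MNC by 0.96 (limma adjusted p = 0.0212). Oaz3, a spermatid antizyme, was higher by 0.88 (adjusted p = 0.0237). Clip2, a relative of Clip1 at 1.86, 1.72 and 1.88 FPKM in Con, was higher by 0.54 (adjusted p = 0.0175). Ift20 was lower in MNC by 0.37 (adjusted p = 0.0279), Ranbp17 by 0.33 (adjusted p = 0.0265) and Mapre1, a microtubule end-binding protein, by 0.27 (adjusted p = 0.0395). The mean of the spermatid markers was lower in Con, as given above, and the part of the markers in these calls was not tested. The count was 0 without Con replicate 1, 2 without Con replicate 2, 10 without Con replicate 3, 4 without MNC replicate 2 and 7 without MNC replicate 3. Over all 14514 genes, the 2967 calls became 8, 195, 1343, 638 and 1032 in the same fits, so few genes of any kind were called in some.

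**Figure D4:**
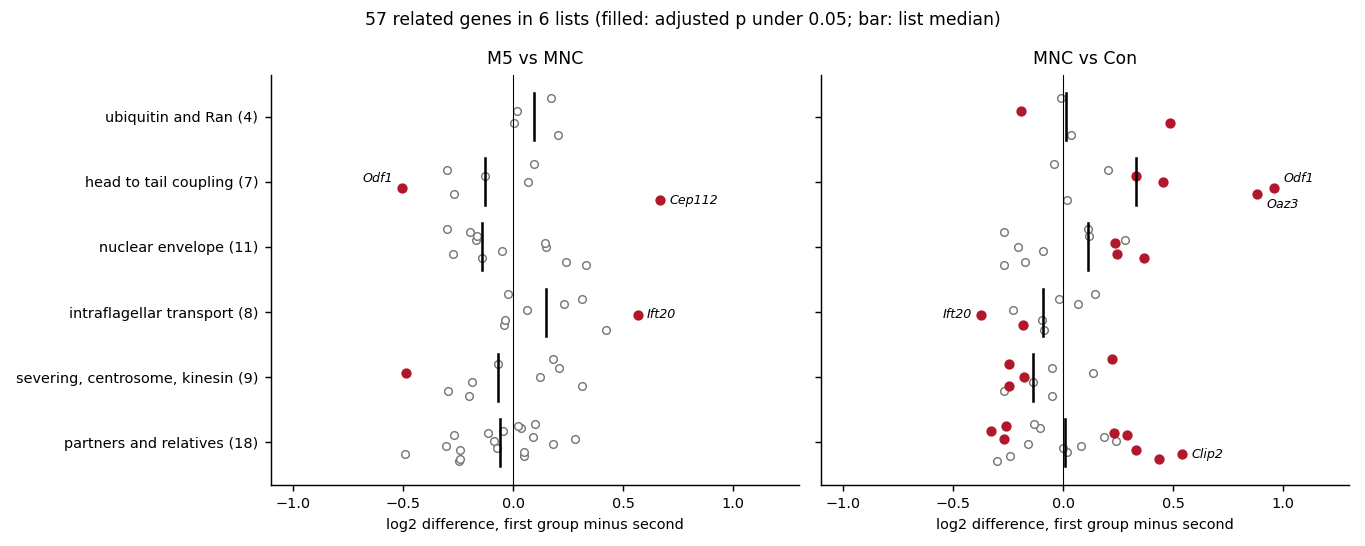
Log2 difference (horizontal axes, first group minus second) of the 57 related genes in their 6 lists (rows, number of genes in brackets) for M5 against MNC and MNC against Con. Filled points were called at an adjusted p under 0.05, and vertical bars are list medians. M5 against MNC has 4 called genes, and MNC against Con has 23.

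Between M5 and M1 7 of the 57 (12.3%) were called, 2 higher and 5 lower, beside 6.75% of all genes. With a filter of 5 FPKM, which most of the 57 pass, 1267 of 9340 genes were called, a share above both of these. The 12.3% of the list was taken without that filter. Ift20 rose by 0.60 (limma adjusted p = 0.0124), Kifap3, a kinesin-2 subunit, rose by 0.23 (adjusted p = 0.0425), and Odf1 fell by 0.59 (adjusted p = 0.0185). Spatc1l, a coupling gene, fell by 0.30 (limma adjusted p = 0.0427). Leaving out M1 replicate 1 took the count to 0, M1 replicate 2 or 3 or M5 replicate 2 to 1, M5 replicate 1 to 2 and M5 replicate 3 to 13. Over all 14514 genes, the 980 calls became 56, 208 and 85 without M1 replicate 1, 2 or 3. They became 256, 135 and 1690 without M5 replicate 1, 2 or 3. No gene of the 57 was called in M1 against MNC, where the lowest p values belonged to Cep112 (0.42, adjusted p = 0.819) and Ift81 (0.15, adjusted p = 0.819). None was called in M3 against MNC, with Ift81 at 0.24 and Lmnb2 at -0.24 (adjusted p = 0.518 for both), or 0.21 and -0.23 without M3 replicate 3 (adjusted p = 0.757 for both). In M5 against M3 Spag4 was at -0.36 and Ift20 at 0.41 (adjusted p = 0.338 for both). Without M3 replicate 3 they were -0.40 (limma adjusted p = 0.0641) and 0.53 (adjusted p = 0.029). In that fit 2 of the 57 genes were called, beside 188 of all 14514 genes.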

How the data were processed

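Testis RNA was sequenced in 15 libraries. Per the study's methods, poly(A) RNA was fragmented, sequenced on an Illumina instrument and mapped to reference genes with SOAPaligner (version 2.20), and the submitters' processing notes name the build mm10. The authors deposited 1 table of FPKM values, in which counts are already scaled by gene length and library total, so short or low genes are imprecise and no count model could be used. Groups came from the sample titles, including M5 replicate 2, whose description names the column of replicate 1. The study's count test was replaced by limma 3.58.1 (R 4.3.3, lmFit and eBayes with trend) on log2(FPKM + 1). Each fit held the 2 groups compared, over 14514 genes with a mean of 1 or more, with two-sided Benjamini-Hochberg adjustment over all of them and calls at an adjusted p under 0.05. The fits were tested on simulated data. Positions came from RefSeq and exon counts, transcript lengths and GC from GENCODE, both on GRCm38.

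All 7 members are named in each comparison. Related genes are named if called without overlap, up to 3 higher and 3 lower, or else the 2 with the lowest p, and for each member the 2 most alike genes. Some genes that the rule names are not reported here. The members and lists were chosen with earlier results of these data known. Alternatives were a pseudocount of 0.1, filters of 0.1, 5 and none, median centring, quantile normalization, no trend, all 5 groups in 1 fit, the replicate number as a block, and leaving out each library. Removal of the GC or length trend (lowess span 0.3) was chosen after seeing the data. Python 3.11.15 with pandas 2.3.3 was also used.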

Additional observations from a re-analysis of the deposited data

Results flagged for a closer look

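Meig1 was flagged because a direct comparison of the knockdowns M5 and M1 showed a difference between them, 0.57 on the log2 scale (limma adjusted p = 0.0295). It was higher in all 3 M5 libraries than in any M1 library. The call was lost when any M1 library, M5 replicate 1 or M5 replicate 2 was left out.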

How the results depend on the processing

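Over the 42 differences of members, 714 alternative values were computed, of which 644 kept direction and side of the threshold, 36 lost the call, 14 gained it and 20 changed sign. The cause of a change between settings was not tested.

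Leaving out libraries gave 0 to 2 members called in M5 against MNC, in MNC against Con and in M5 against M1. For the 57 related genes it gave 0 to 7, 0 to 19, 0 to 13 and, in M5 against M3, 0 to 2. Over all genes it gave 35 to 946 calls in M5 against MNC and 8 to 2497 in MNC against Con. In M5 against M1 it gave 56 to 1690, and in M5 against M3 0 to 188. Of the other settings for M5 against MNC, 0 members were called with no filter, centring, quantile normalization or the replicate block. The related count of 4 became 8 with a filter of 5 or quantile normalization, 2 with no filter or no trend, 12 with all 5 groups in 1 fit, 1 with the GC trend removed and 0 with centring or the block. For MNC against Con, the 2 members became 1 with a filter of 0.1, 0 with no filter or the block, and 4 with the length trend removed, when Meig1 (-0.20, adjusted p = 0.0316) and Clip1 were added. Meig1 was at -0.07 as reported, and at -0.48 (adjusted p = 0.0258, called) with quantile normalization, where the 2 called members were Meig1 and Clip1 in place of Hook1 (adjusted p = 0.0659) and Spem1 (adjusted p = 0.0571). The related count of 23 became 13 with no filter, 14 with centring and 0 with the block. For M5 against M1, the 1 member became 2 with a filter of 5, all 5 groups in 1 fit or the length trend removed, and 0 with no filter, centring, the block or the GC trend removed. The related count of 7 became 4 with a filter of 0.1, 3 with no filter or no trend, 1 with centring, 2 with the GC trend removed and 0 with the block.

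The sign changes were all of differences that were not called. With the GC trend removed, Hook1 was at -0.044 in M5 against MNC, -0.0073 in M1 against MNC, -0.0367 in M5 against M1 and -0.0526 in M5 against M3, and Lrguk at -0.0101 in M3 against MNC. Centring put Iqcg at 0.0034 in M1 against MNC, Meig1 at 0.0178 and Rimbp3 at 0.0118 in MNC against Con, and Clip1 at -0.0144 in M5 against M1. In M5 against M3 it put Hook1 at -0.0701, Lrguk at -0.0371 and Clip1 at -0.066. Spem1 in M3 against MNC was at -0.0745 with quantile normalization, -0.0301 with the length trend removed, and from -0.0546 without MNC replicate 1 (-0.0084 without M3 replicate 1) to 0.0405 when libraries were left out. In M1 against MNC, leaving out MNC replicate 1 gave -0.0151 for Hook1 and 0.0017 for Iqcg, and MNC replicate 2 gave 0.0685 and -0.0753. In M5 against M3, leaving out libraries gave -0.0272 (M5 replicate 2) to 0.1136 for Hook1 and -0.0018 (M3 replicate 2) to 0.094 for Clip1.

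Same-numbered libraries mostly did not deviate together (r from -0.40 to 0.18 over 18 pairs, with 3 over 0.1). The numbers were therefore not used to pair the samples. With 3 libraries per group, these correlations cannot show that same-numbered libraries share no batch. With the replicate block, no member was called in any comparison, and 14 genes in all were called in M5 against MNC and 10 in MNC against Con. Of the 820 genes called in all in M5 against MNC, the count became 464 with no filter, 182 with centring, 215 with no trend, 2424 with all 5 groups in 1 fit and 213 with the GC trend removed. For M5 against M1, 980 became 601, 252 and 384 with no filter, centring and no trend, and 358 with the GC trend removed. For MNC against Con, 2967 became 1632 with no filter and 1869 with centring, and 39.3% of calls were higher as tested, 77.5% with centring and 43.5% with all 5 groups in 1 fit. With an unknown depth, no counting interval can be given.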
